A study of Mus musculus with 22 samples.

Results

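Neural lineage genes were followed here as a set of 8 genes out of 34489 genes with a row in the deposited gene counts. They were picked by symbol, but with earlier results of these data known, so their patterns are not independent of the data. The set runs from neural progenitor genes (Sox1, Pax6, Nes and Zic1) through the proneural gene Neurog2 to genes of young and mature neurons (Dcx, Tubb3 and Map2). All 8 had exactly 1 row, and all 8 passed the filter on low counts in every fit used below. A member could pass that filter through the cultures in which it was high, so the passing itself carries no information on a difference.

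The 22 bulk RNA-seq libraries were made from mouse pluripotent stem cells in a study of whether activators of AMPK, a kinase that senses low cellular energy, return primed epiblast stem cells (mEpiSCs) to the naive state of embryonic stem cells (mESCs). The starting cells were Oct4GIP mEpiSCs, which carry an Oct4-promoter eGFP and puromycin resistance transgene, or 129/MSM mEpiSCs, from a cross of an MSM/Ms father and a 129X1/SvJ mother, each a single line kept in FGF2 and Activin A. Oct4GIP cells were kept on fibronectin and met mouse embryonic fibroblast (MEF) feeders when plated on the day before the media were changed. 129/MSM cells were kept on MEF feeders in another medium, with serum replacement. The cultures and the primed 129/MSM library could therefore hold feeder RNA, and the primed libraries differ in line, medium and feeders. The naive state had a single library, from mESCs with a Rex1-GFP reporter (Rex1 is a gene of naive cells), and the primed state 1 library of each mEpiSC line. Cultures of Oct4GIP cells were sampled whole at d8 and d16 in 4 media, namely Basal medium, Basal medium with 2iL (inhibitors of MEK and GSK3 with the cytokine LIF), with AICAR (a precursor of an AMP mimic that activates AMPK), or with AICAR+LIF, giving 8 libraries.

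Reverted cells had been moved to 2iL after d16 and passaged. They gave 4 Oct4GIP libraries after 2 or 3 passages (d16+2p and d16+3p, each from AICAR and from AICAR+LIF) and 7 libraries after 10 passages (d16+10p), of which 5 were Oct4GIP cells from AICAR, AICAR+LIF, A769662, A769662+LIF (A769662 is a direct AMPK activator) or metformin+LIF, and 2 were 129/MSM cells from AICAR or AICAR+LIF. No combination of line, medium, day and passage had a second library, so the spread within a state includes differences between media, passages and lines, and no p-value here measures repeat cultures of 1 condition. Levels are CPM, the counts scaled to the library total times edgeR's TMM factor. Library totals ranged from 438771 to 5290163 counts with a median of 2848382, and the lowest were those of AICAR+LIF d8 (438771) and AICAR d8 (956357), where 3 counts, the floor used here, correspond to 5.95 and 2.85 CPM. Floors and counting intervals cover counting error only.

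During neural development, SOX1 and PAX6 mark the neuroepithelium, Nestin (Nes) is the intermediate filament of dividing progenitors, and ZIC1 is a zinc finger factor of the dorsal neural tube. Neurogenin 2 (Neurog2) is a basic helix-loop-helix factor that commits progenitors to neurons, after which doublecortin (Dcx) binds the microtubules of migrating neurons, class III β-tubulin (Tubb3) is a neuronal tubulin and MAP2 stabilizes microtubules in dendrites. Primed epiblast cells deprived of Activin signals readily take a neural fate, and outside neurons many neuronal genes are held off by the REST repressor. In bulk RNA, fewer cells of a type and less RNA per cell cannot be told apart.

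On GRCm38, Sox1 lies at chr8:12395295-12400126 on the plus strand, Pax6 at chr2:105668900-105697364 (plus), Nes at chr3:87971078-87980451 (plus) and Zic1 at chr9:91358058-91365810 (minus), by GENCODE M21. Neurog2 lies at chr3:127633135-127635631 (plus), Dcx at chrX:143855842-143933311 (minus), Tubb3 at chr8:123411424-123422015 (plus) and Map2 at chr1:66175273-66442583 (plus). All 8 are protein-coding. Sox1 overlaps Sox1ot on the same strand, which had 5 to 40 counts in the cultures, and Zic1 overlaps the protein-coding gene Zic4 on the opposite strand, which had 20 to 1317. The libraries were stranded, but whether strand was used in counting is not given in the sources used here, so reads could not be divided further between Zic1 and Zic4. Pax6 overlaps the antisense gene Pax6os1, which had at most 2 counts in any culture.

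The start-site sequences are shown for the 3 members that were nearly silent outside the cultures (Zic1, Neurog2 and Dcx) and for Tubb3, which was not. They are taken from RefSeq on GRCm38.p6, which had 10 start-site entries for the 8 members, and each is cut to the bases upstream of the GENCODE gene, read 5′ to 3′ along the gene's strand. Capitals mark matches on either strand to the E-box CANNTG, the neurogenin-type E-box CAGATG (contained in the former), the SOX motif ACAATG, the TATA box TATAAA and the CCAAT box.
Zic1, chr9:91365811-91366018, minus strand: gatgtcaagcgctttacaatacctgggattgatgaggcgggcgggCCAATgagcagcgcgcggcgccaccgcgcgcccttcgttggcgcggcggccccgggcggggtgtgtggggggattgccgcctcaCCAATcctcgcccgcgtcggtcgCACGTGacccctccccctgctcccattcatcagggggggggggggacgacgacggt
Neurog2, chr3:127632886-127633134, plus strand: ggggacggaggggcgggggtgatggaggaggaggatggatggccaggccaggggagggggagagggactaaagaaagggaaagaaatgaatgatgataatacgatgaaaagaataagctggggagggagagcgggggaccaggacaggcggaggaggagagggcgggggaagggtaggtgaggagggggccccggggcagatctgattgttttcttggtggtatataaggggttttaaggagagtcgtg
Dcx, chrX:143933312-143933469, minus strand: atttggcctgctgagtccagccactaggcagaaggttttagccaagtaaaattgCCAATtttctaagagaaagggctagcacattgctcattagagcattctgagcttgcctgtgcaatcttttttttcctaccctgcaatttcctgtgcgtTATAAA
Tubb3, chr8:123411303-123411423, plus strand: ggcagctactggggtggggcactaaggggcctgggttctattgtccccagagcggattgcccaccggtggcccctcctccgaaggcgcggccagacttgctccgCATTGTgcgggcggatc

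Of the 10 windows of 250 bases upstream of the members' RefSeq starts, 2 held CANNTG (1 of Pax6 and that of Zic1) and none held CAGATG, against 66.2% and 14.4% of all 32851 RefSeq windows. That Pax6 window lies within the GENCODE gene, and only 26 bases of the Sox1 window lie upstream of its gene. ACAATG was found in 1 of the 10 (Tubb3, with 2 matches) against 10.7%, TATAAA in 2 (both overlapping Dcx entries) against 12.4%, and CCAAT in 5 against 33.9%. Dcx had the lowest GC content, 44.8% and 41.6% in its 2 windows, and Map2 the highest, 81.2%, where the median of all windows was 52.4%. These matches describe the letters of short windows only.

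In primed, naive and reverted cells, Zic1, Neurog2 and Dcx were at or near the floor in every library, and in all 8 cultures they were well above it. The 2 primed libraries, Oct4GIP and 129/MSM, held Zic1 at 1.11 and 1.58 CPM, naive mESCs at 0 and the 11 reverted libraries at 0 to 1.46 CPM. In the d8 cultures Zic1 reached 472 CPM in Basal medium, 518 in 2iL, 212 in AICAR and 163 in AICAR+LIF, and at d16 it stood at 683, 236, 158 and 202 CPM in the same order. Pooled over libraries, the ratio of cultures to primed cells was 292, with a 95% counting interval (exact, conditional on the total) of 148 to 676, and the ratio to reverted cells was 1216, with an interval of 661 to 2537. Every culture was above every other library.

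Neurog2 had 1 count in the 2 primed libraries together, 1 count in the 11 reverted libraries together and 0 in naive mESCs. At d8 it stood at 173 CPM in Basal medium, 73.6 in 2iL, 45.6 in AICAR and 29.7 in AICAR+LIF, and at d16 at 21.8, 3.62, 15.7 and 10.6 CPM. The pooled ratio of cultures to primed cells was 265 with a counting interval of 47.5 to 10484.5, and that to reverted cells 1381 with an interval of 247 to 54601. Every culture was above every other library for this gene.

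Dcx had 3 counts in each primed library (1.11 and 0.951 CPM), 1 count in naive mESCs and 3 counts in all reverted libraries together, of which 8 of 11 had none. In the d8 cultures it stood at 1249 CPM in Basal medium, 922 in 2iL, 195 in AICAR and 131 in AICAR+LIF, and at d16 at 159, 70.4, 101 and 80.8 CPM. The pooled ratio of cultures to primed cells was 359.7 with a counting interval of 165 to 980.5, and that to reverted cells 3746 with an interval of 1281 to 18171. The intervals of Zic1, Neurog2 and Dcx overlapped in both comparisons, and for none of them did a culture overlap another library.

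Sox1 and Pax6 were low outside the cultures, with more than 3 counts in 20 and 18 of all 22 libraries. The level of each in primed 129/MSM cells was 1 count. Sox1 was at 1.48 and 0.317 CPM in primed cells, 2.18 in naive mESCs, 3.05 to 7.05 (median 4.55) in the 4 libraries at d16+2–3p and 0.590 to 2.75 (median 1.55) in the 7 at d16+10p. In the cultures it was at 123, 71.6, 136 and 79.3 CPM at d8 (Basal, 2iL, AICAR and AICAR+LIF) and at 41.8, 20.1, 25.04 and 21.9 CPM at d16. No culture overlapped another library, while primed, naive and d16+10p levels were close to each other.

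Pax6 was at 1.84 and 0.317 CPM in primed cells, 0 in naive mESCs and 0.393 to 3.82 CPM in reverted cells. In the d8 cultures it was at 86.0, 67.8, 43.7 and 19.8 CPM in the order Basal, 2iL, AICAR and AICAR+LIF, and at d16 at 83.4, 33.0, 25.7 and 71.0 CPM. The lowest of these, AICAR+LIF d8, rests on 10 counts. Between d8 and d16 Pax6 moved by medium in both directions.

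Nes, Tubb3 and Map2 were detected in every library. Nes was at 314 and 200 CPM in primed cells, 45.5 in naive mESCs and 13.5 to 35.4 (median 26.5) in reverted cells. The d8 cultures (388, 360, 324 and 333 CPM) were all above both primed libraries, and the d16 cultures (93.3, 148, 133 and 99.3 CPM) were all below them. Its high level in primed cells sets it apart from the other 7 genes.

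Map2 was at 20.7 and 11.1 CPM in primed cells, 4.67 in naive mESCs, 2.29 to 5.64 at d16+2–3p and 5.56 to 14.4 at d16+10p. In the cultures it was at 1398, 698, 218 and 125 CPM at d8 and 504, 148, 225 and 242 CPM at d16. The cultures did not overlap any other library, whereas the highest d16+10p library lay above the lower primed one.

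Tubb3 was the member with the highest level in naive and reverted cells per length of exon sequence. In CPM it was at 83.1 CPM in naive mESCs, 19.6 and 13.3 in primed cells, 72.3 to 156 (median 128) at d16+2–3p and 30.1 to 232 (median 65.0) at d16+10p, the highest being metformin+LIF. The d8 cultures were at 1437, 798, 366 and 299 CPM, above every other library, but the d16 cultures, at 125, 105, 142 and 112 CPM, lay within the range of the reverted cells. Tubb3 overlaps the annotated protein-coding gene Gm20388 on the same strand, for which no counts were used here.

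**Figure D1:**
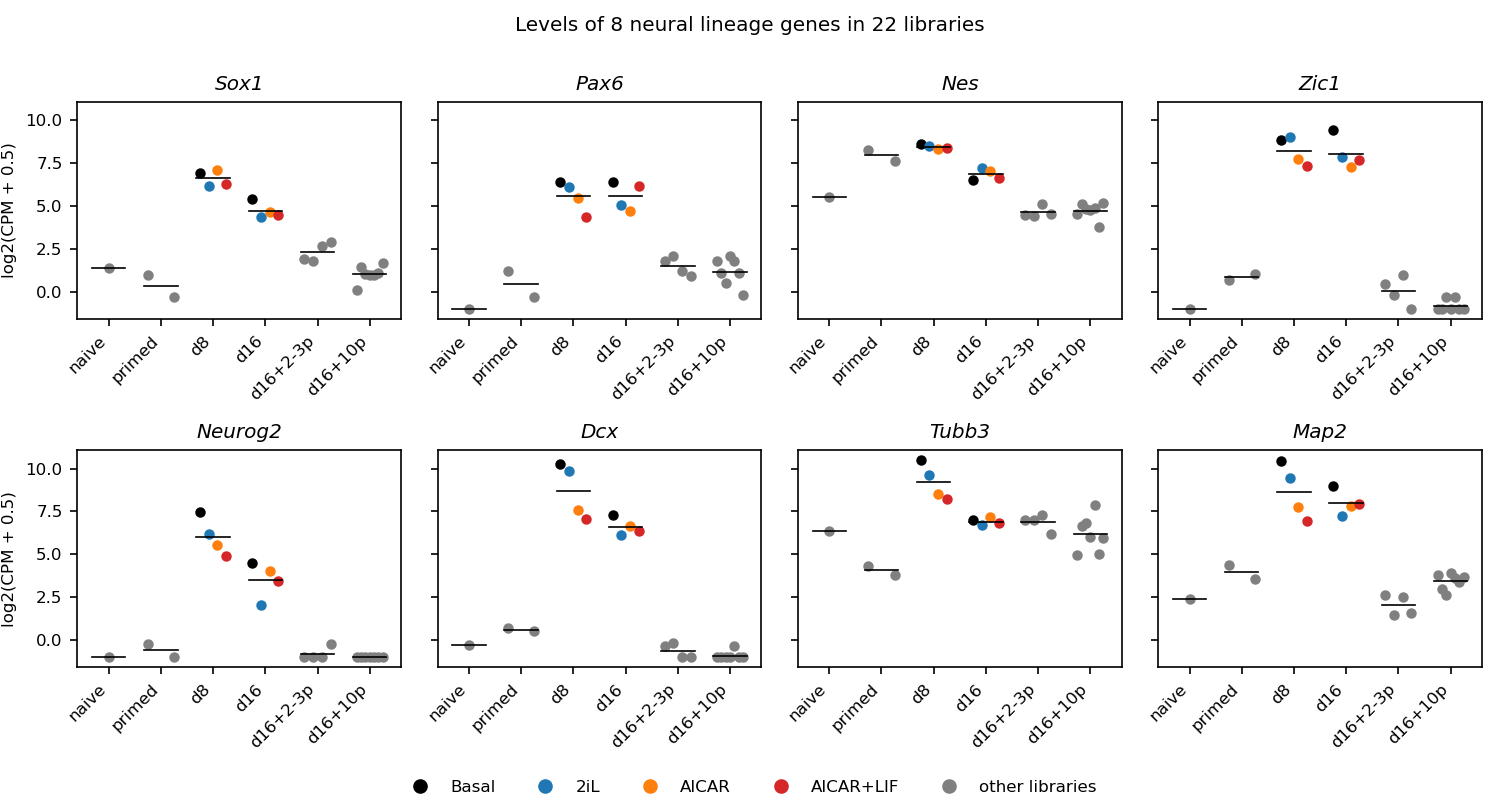
Level of each gene as log2(CPM + 0.5) (y axis) in each of the 22 libraries (points), by state (x axis), with the state mean as a line and the d8 and d16 cultures coloured by medium. Zic1, Neurog2 and Dcx lie at the bottom of the scale outside the cultures, Nes starts high in primed cells, and Tubb3 at d16 (105 to 142 CPM) lies within the reverted range (30.1 to 232 CPM).

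Compared per length of exon sequence (CPM per kb of the union of GENCODE exons), Tubb3 was the most abundant member in Basal d8 at 769 CPM per kb. Dcx (98.7), Map2 (85.0), Zic1 (83.0), Neurog2 (77.8) and Nes (60.4) followed within a narrow range, Sox1 stood at 25.4 and Pax6 at 7.36. In primed cells Nes led instead, with a mean of 40.0 CPM per kb against 8.80 for Tubb3 and under 1 for each of the others. Reads were mapped to all transcripts of a gene with a minimum mapping quality, and what this does to genes with many shared isoforms, such as Map2, was not tested.

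To ask whether the whole cultures had gained neural expression, all 8 cultures were compared with the 2 primed libraries in a fit of all 22 libraries by state. Of the 8 members, 7 were higher in the cultures and none lower, where 18.1% of the 18739 genes tested were called higher and 19.4% lower. The median log2 fold change was 5.77 over the members and 0.04 over all genes. Dcx was higher by a log2 fold change of 7.90 ± 0.97 (SE; adjusted p = 5.37e-06, edgeR) and Zic1 by 7.89 ± 0.82 (adjusted p = 8.56e-07, edgeR).

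Among the other called members, Sox1 was higher by 5.87 ± 0.57, Pax6 by 5.66 ± 0.81, Map2 by 4.72 ± 0.80 and Tubb3 by 4.18 ± 0.78 on the log2 scale, with adjusted p from 3.92e-07 to 0.000362 (edgeR). Sox1 and Pax6 had only 5 and 6 counts in primed cells, both libraries together. The fitted change of Neurog2, 7.25 ± 1.20 (adjusted p = 0.000327, edgeR), rests on 1 count in primed cells and depends on the prior count. Nes did not pass the test, at -0.33 ± 0.25 (adjusted p = 0.303, edgeR), with its d8 cultures above and its d16 cultures below the primed libraries. Leaving out the shallow AICAR d8 and AICAR+LIF d8 libraries, a setting chosen after the data were seen, also gave 7 members.

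The lists of other neural genes were counted in the same fit. Of 33 progenitor genes tested (of 35 listed), 22 were higher and 2 lower, with a median log2 fold change of 3.25. The median was 2.43 when the 13 genes with 3 or fewer counts over a whole group were treated apart. Such genes were set at the bound those counts allow, or left out where both groups had 3 or fewer. Fabp7, the fatty acid binding protein of radial glia, rose by 7.93 ± 1.04, and Nr2f1, a nuclear receptor of the developing forebrain, was at 0.369 and 0.317 CPM in primed cells and at 109 to 418 CPM in the cultures, while the epiblast and forebrain factors Otx2 (-2.62 ± 0.74) and Pou3f1 (-2.15 ± 0.53) fell. Of 17 proneural genes tested, 14 were higher and none lower, with a median of 7.12, or 4.85 with 12 genes treated in the same way. The helix-loop-helix factor Hes6 rose by 1.29 ± 0.29 and the zinc finger factor Insm1 by 4.86 ± 0.68.

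Of 35 neuronal genes tested, 23 were higher and 3 lower (median 2.61). The tau gene Mapt was higher by 6.29 ± 1.496 and the RNA-binding protein gene Elavl4 by 4.65 ± 0.66, whereas the neurofilament genes Nefm (-4.47 ± 0.80) and Nefh (-3.28 ± 0.91) were lower. Nefm stood at 0 to 0.416 CPM in the 8 cultures and at 5.29 to 48.3 CPM in the 11 reverted libraries, and every culture was below every other library. Of 14 neural crest and glial genes, 7 were higher and 2 lower, with the neurotrophin receptor gene Ngfr at 3.03 ± 0.61 and the receptor gene Erbb3 at -3.30 ± 0.49. Of the 10 genes of the REST silencing complex, 2 were lower and none higher, near the 19.4% of all genes called lower. Rest itself fell by 1.16 ± 0.18 on the log2 scale (adjusted p = 5.57e-05, edgeR), Sin3a fell by 0.79 ± 0.12 and the other 8 did not pass the test.

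Other cell types moved with the same comparison. The summed level of 17 fibroblast genes was 3819 to 56313 CPM in the cultures against 224 and 1073 in primed cells and 41.6 to 145 in reverted cells, and 14 of the 17 were higher in the cultures than in primed cells. Col1a1, a defining fibroblast collagen gene, reached 17063 CPM in the cultures and at most 143 elsewhere. The part of feeders or of other differentiating cells in these values was not tested. The 8 pluripotency genes summed to 1311 and 1745 CPM in primed cells and to 5.82 to 174 CPM in the cultures, and 9 endothelial genes to 19.1 to 253 CPM in the cultures and 9.59 and 676 CPM in primed cells.

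The cultures were next set against the 11 reverted libraries. The cultures include Basal and 2iL media, from which no reverted library came, and a change within cells and a selection of cells during expansion cannot be told apart here. All 8 members were higher in the cultures, where 39.5% of all genes were called higher and 36.7% lower. The median over the members was 5.29 against 0.08 over all genes. The smallest change was that of Tubb3, 1.495 ± 0.34 (adjusted p = 0.000519, edgeR), followed by Nes at 2.97 ± 0.16, Sox1 at 4.18 ± 0.24, Pax6 at 4.58 ± 0.36 and Map2 at 5.999 ± 0.44, all on the log2 scale. Zic1 was higher by 9.96 ± 0.48 (adjusted p = 2.84e-13, edgeR) on 10 counts in all reverted libraries together.

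In this comparison all 17 proneural genes tested were higher in the cultures, as were 27 of 33 progenitor and 30 of 35 neuronal genes, with 3 progenitor and 3 neuronal genes lower. The lower ones included Sox2 (-0.78 ± 0.17), which pluripotent and neural progenitor cells share, and Nefm (-5.82 ± 0.61). Rest was lower by 2.46 ± 0.12 (adjusted p = 4.99e-13, edgeR), at 34.9 to 77.3 CPM in the cultures, 125 and 131 in primed cells, 257 in naive mESCs and 252 to 393 in reverted cells. These 3 ranges of Rest, in cultures, primed cells and reverted cells, did not overlap. Of the 10 genes of the REST silencing complex, 4 were higher and 5 lower in the cultures than in reverted cells, with a median of -0.30. These shares were not far from the 39.5% and 36.7% of all genes. The higher ones were Rcor3 (1.54 ± 0.19), Ctdsp1 (0.79 ± 0.13), Rcor1 (0.63 ± 0.16) and Ehmt2 (0.53 ± 0.12). Besides Rest, the lower ones included Hdac1 (-2.12 ± 0.15), Sin3a (-1.47 ± 0.08) and Kdm1a (-0.71 ± 0.12).

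Reverted cells at d16+10p were compared with primed cells, both lines being pooled on each side without a term for line. Tubb3 was higher by a log2 fold change of 2.48 ± 0.72 (adjusted p = 0.00982, edgeR) and Nes changed by -3.23 ± 0.23 (adjusted p = 2.17e-09, edgeR), where 16.7% of all genes were called higher and 19.9% lower. The other 6 members did not pass the test. Their estimates were 0.97 ± 0.64 for Sox1, 0.93 ± 0.86 for Pax6, and -0.58 ± 0.66 for Map2, while Zic1, Neurog2 and Dcx had 2, 0 and 1 counts over the 7 libraries. The median was -1.41 over the members and -0.01 over all genes. It was -0.58 over the members with Zic1 and Dcx at their bound and Neurog2, at the floor in both groups, left out. The Tubb3 call was lost without primed Oct4GIP or without primed 129/MSM (adjusted p = 0.057 and 0.0981, edgeR), with log2 fold changes of 2.78 and 2.23.

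Between primed and d16+10p cells, 10 of the 33 progenitor genes tested fell, among them Otx2 (-6.17 ± 0.83), Irx3 (-5.69 ± 0.73) and Sox9 (-5.48 ± 0.70), and 4 rose, including Sox2 (2.43 ± 0.34) and Sall3 (4.97 ± 0.82). Of 17 proneural genes 4 fell and none rose, a share near that of all genes called lower, with the Notch ligand genes Dll3 (-5.40 ± 0.46) and Dll1 (-4.24 ± 0.72) among them. The proneural median was 0.51 as fitted. It was -1.47 with the 12 genes at the floor set at their bound, or left out where both groups had 3 or fewer counts. Its sign therefore depends on how genes near 0 are handled. Of 35 neuronal genes 15 fell and 3 rose, the latter being the tubulin gene Tubb2b (2.07 ± 0.44), Mapt (4.75 ± 1.48) and Gad1, which had 2 counts in primed cells. Of 14 neural crest and glial genes 2 rose and 2 fell.

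Between d16+2–3p and d16+10p, 1 member changed. Sox1 fell by 1.45 ± 0.37 on the log2 scale (adjusted p = 0.0166, edgeR), where 4.61% of all genes were called lower and 4.75% higher. It did not pass without AICAR d16+3p (adjusted p = 0.057, edgeR) or without AICAR+LIF d16+3p (adjusted p = 0.0808, edgeR), and the 2 libraries at d16+3p were its highest reverted libraries. Map2 had an estimate of 1.42 ± 0.63 in the other direction (adjusted p = 0.178, edgeR). Few of the listed genes were called. Of 17 proneural genes tested 1 fell, Dll1 (-2.68 ± 0.71). Of 35 neuronal genes 3 fell, Crmp1 (-2.14 ± 0.48), Gap43 (-2.68 ± 0.68) and Nefm (-1.65 ± 0.47). Of 33 progenitor genes 1 rose, the RNA-binding protein gene Msi1 (1.97 ± 0.29), and of 14 neural crest and glial genes none was called.

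Time in culture was examined by comparing d16 with d8 across the 4 media, each medium being its own pair. At d16, 5 of the 8 members were lower and none higher, where 9.50% of the 14026 genes tested were called lower and 14.7% higher. The log2 fold change was -2.55 ± 0.44 for Neurog2, -2.30 ± 0.38 for Tubb3, -2.10 ± 0.52 for Dcx, -1.89 ± 0.22 for Sox1 and -1.57 ± 0.19 for Nes, with adjusted p from 0.00363 to 0.0308 (edgeR). All 5 were lower at d16 in each of the 4 media. The mean of Dcx over media went from 624 ± 550 CPM at d8 to 103 ± 39.6 CPM at d16 and that of Nes from 351 ± 28.8 to 118 ± 26.5 CPM (SD, n = 4). Neurog2 did not pass without Basal d8 or Basal d16, and Dcx did not pass without any 1 of the 4 Basal and 2iL cultures, with adjusted p of 0.0642 to 0.113 (edgeR).

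The change from d8 to d16 varied with the medium for the neuronal genes. The ratio of d8 to d16 for Dcx was 7.85 in Basal medium and 13.1 in 2iL, but 1.93 in AICAR and 1.62 in AICAR+LIF. For Tubb3 it was 11.5 and 7.63 without AICAR, and 2.58 and 2.67 with it. For Map2 it was 2.77 and 4.71 without AICAR, but 0.966 in AICAR and 0.517 in AICAR+LIF, so Map2 did not fall with AICAR. Sox1 differed less by medium, with ratios of 2.93 and 3.56 without AICAR and 5.42 and 3.62 with it. These are single libraries and the ratios themselves have no replicate.

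Pax6, Zic1 and Map2 did not pass this test, at -0.12 ± 0.40, -0.16 ± 0.28 and -0.70 ± 0.49. Zic1 rose in Basal medium from 472 to 683 CPM and fell in 2iL from 518 to 236 CPM, and Pax6 went from 19.8 to 71.0 CPM in AICAR+LIF while it fell in AICAR from 43.7 to 25.7 CPM. Their means over media therefore hide opposite moves of single cultures, which cannot be tested without replicates.

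**Figure D2:**
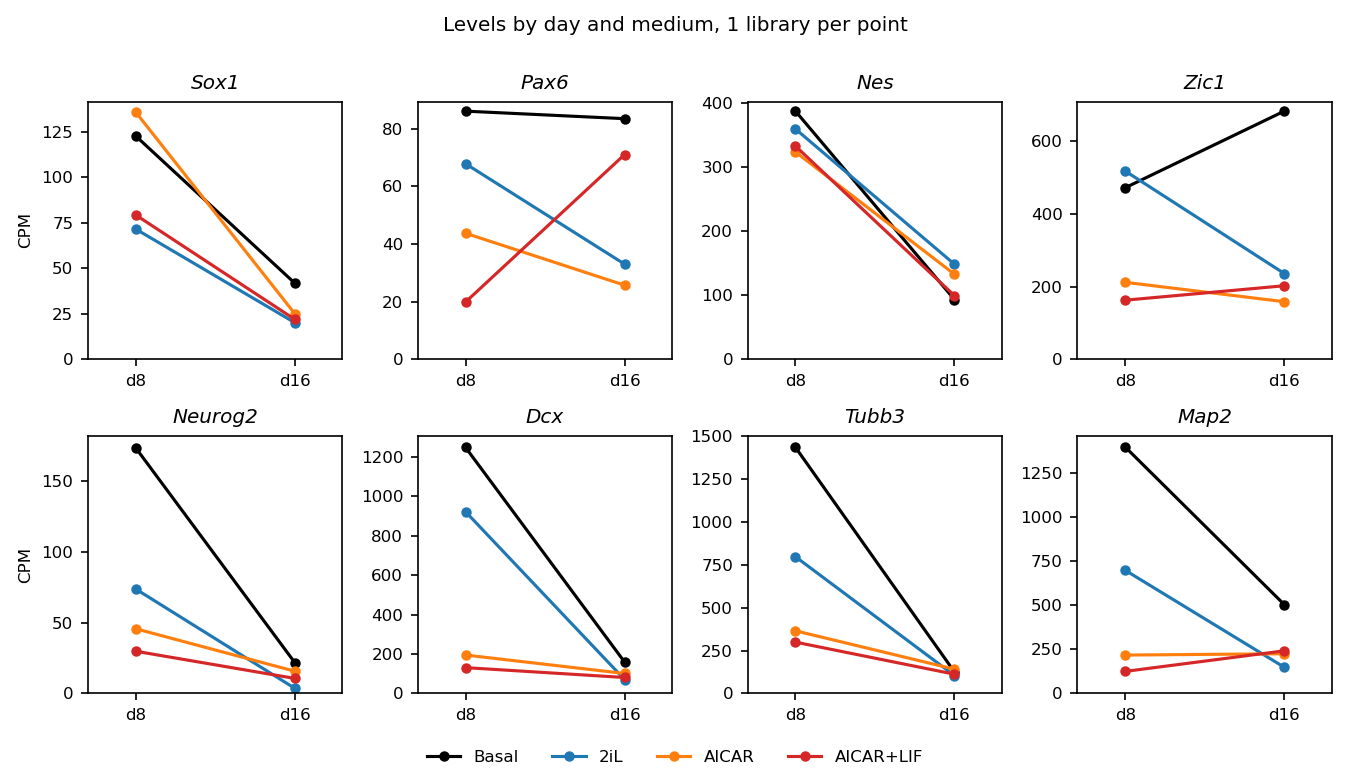
Level in CPM (y axis, linear, scaled separately for each gene) at d8 and d16 (x axis), with 1 line for each medium and 1 library for each point. Neurog2, Dcx, Tubb3, Sox1 and Nes fall in all 4 media, and for Dcx the cultures without AICAR start at 922 to 1249 CPM and those with AICAR at 131 to 195 CPM, while all end between 70.4 and 159 CPM.

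Proneural genes followed Neurog2 most closely in time. Of 16 tested, 13 were lower at d16 and none higher, with a median of -3.31 against 0.01 over all genes, and Dll3 (-4.02 ± 0.43), Nhlh2 (-3.97 ± 0.70), Dll1 (-3.78 ± 0.72) and Insm1 (-3.24 ± 0.38) were examples. Nhlh2, a helix-loop-helix gene of newborn neurons, was at 1159, 569, 254 and 226 CPM at d8 and at 30.6, 8.85, 66.7 and 29.8 CPM at d16 in the order Basal, 2iL, AICAR and AICAR+LIF. Of 32 neuronal genes, 11 were lower and 2 higher, with Elavl4 at -3.20 ± 0.46 and the doublecortin-like kinase gene Dclk1 at 1.78 ± 0.31. Of 28 progenitor genes, 7 were lower and 5 higher.

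Of 11 neural crest and glial genes tested, 2 were higher and 4 lower at d16, with a median of -0.23. Gfap, the filament gene of astrocytes, was at 1.09, 2.91, 0 and 1.98 CPM in the 4 d8 cultures and at 4529, 13051, 2427 and 2298 CPM in the 4 d16 cultures, a log2 fold change of 12.09 ± 0.41 (adjusted p = 0.000131, edgeR). It was at 1.18 CPM or less in every library outside the cultures. Sox9 (1.47 ± 0.18) and Fabp7 (0.94 ± 0.27), 2 genes of the progenitor list that radial glia also express, were higher too, while the neural crest genes Pax3 (-1.16 ± 0.28) and Tfap2a (-2.40 ± 0.30) fell. The summed level of the proneural genes was 773 to 3717 CPM at d8 and 150.4 to 284 CPM at d16.

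Fibroblast genes rose over the same interval, 13 of 16 tested being higher at d16 and none lower. Their summed level was nearly even at d8, from 3819 to 4257 CPM, and at d16 was 6846 in Basal medium, 56313 in 2iL, 19702 in AICAR and 22184 in AICAR+LIF. Its part in the neural levels at d16 was not tested.

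**Figure D3:**
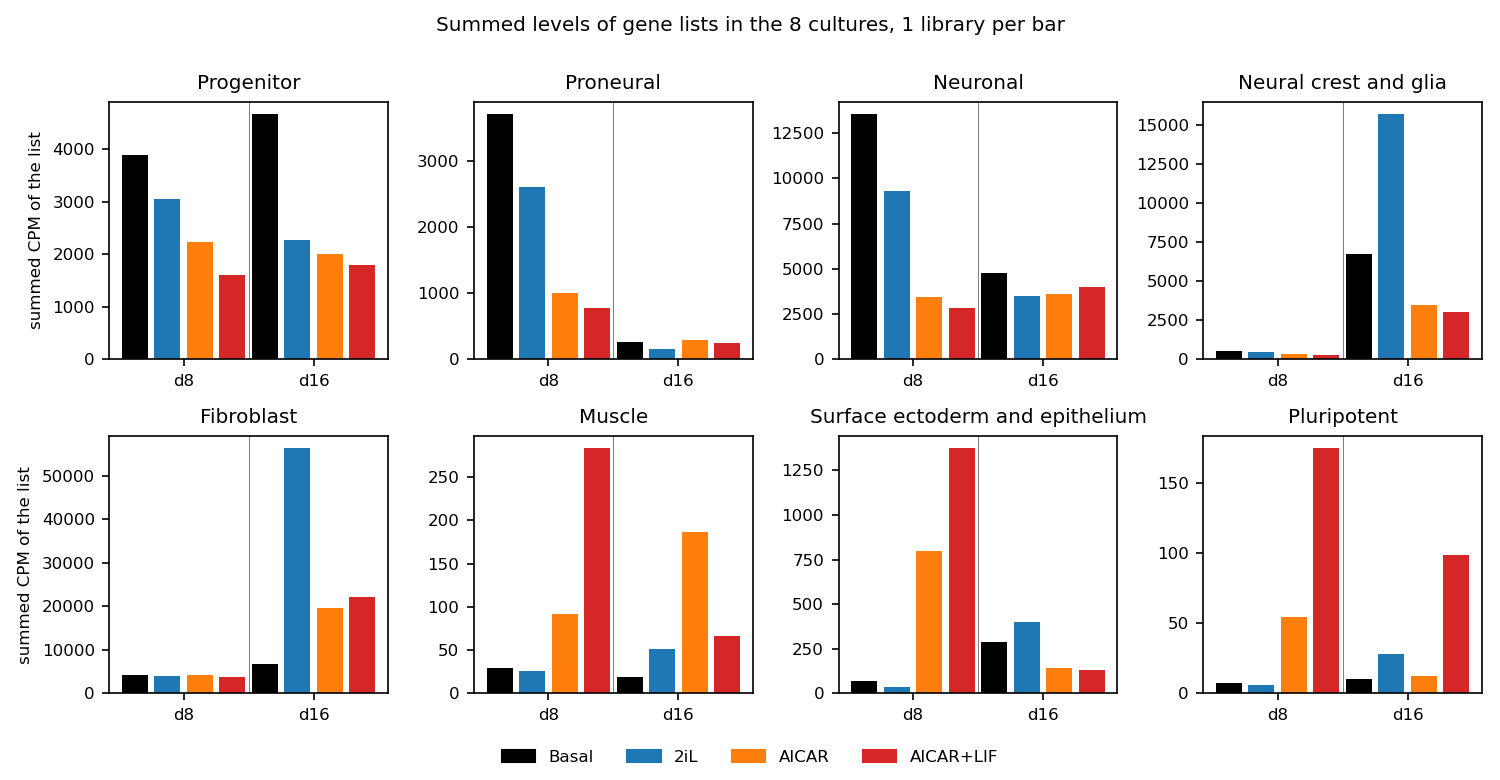
Summed CPM of the genes of each list (y axis, linear from 0, scaled separately for each list) in the 8 cultures (bars, 1 library each), grouped by day on the x axis and coloured by medium. Proneural and neuronal sums are highest in Basal and 2iL at d8, the glial sum is high at d16 only within these 8 libraries, and the fibroblast sum is even at d8 (3819 to 4257 CPM) and uneven at d16.

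The effect of AICAR was tested in the 8 cultures by setting AICAR and AICAR+LIF against Basal and 2iL, with the day as a covariate. All 8 estimates were below 0, but only Zic1 passed the test, at -1.32 ± 0.29 (adjusted p = 0.0296, edgeR), where 6.06% of all genes were called lower and 3.54% higher. Zic1 was at 158 to 212 CPM in the 4 cultures with AICAR and 236 to 683 CPM in the 4 without, with no overlap. The call was lost in 7 of the 8 fits that left out 1 culture, although its estimate stayed between -1.56 and -0.95.

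The other 7 members did not pass, though the estimates of Dcx and Map2 were as large as that of Zic1. Dcx was at -1.47 ± 0.48 (adjusted p = 0.0868, edgeR), Map2 at -1.47 ± 0.53 (adjusted p = 0.108, edgeR), Neurog2 at -0.81 ± 0.54, Tubb3 at -0.75 ± 0.36 and Pax6 at -0.66 ± 0.41. Sox1 (-0.07 ± 0.30) and Nes (-0.07 ± 0.18) were close to 0 and turned positive in several of the other fits. DESeq2 also called Dcx and Map2, and a setting chosen after the data were seen, with Basal medium as the only control, called Zic1, Dcx, Map2 and Neurog2, whereas 2iL as the only control called none.

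At d8 the split by medium was wide for the neuronal genes. The mean of Basal and 2iL was 6.67 times that of the cultures with AICAR for Dcx, 6.12 times for Map2, 3.36 times for Tubb3 and 3.28 times for Neurog2, and for each of these both cultures without AICAR lay above both with it. At d16 the same ratios were 1.26, 1.40, 0.907 and 0.968, and the media overlapped for all 4 genes. For Zic1 the ratio was 2.65 at d8 and 2.55 at d16, and for Sox1 it was 0.903 and 1.32.

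The difference between the days was tested as an interaction of AICAR with day. No member passed, where 0.200% of all genes were called in either direction, and 3 members had an unadjusted p under 0.05. The estimates, as the AICAR effect at d16 minus that at d8, were 2.21 ± 0.52 for Dcx and 1.71 ± 0.40 for Tubb3 (adjusted p = 0.124 for both, edgeR), 1.95 ± 0.77 for Map2 (adjusted p = 0.289, edgeR) and 1.47 ± 0.97 for Neurog2. DESeq2 called Dcx (adjusted p = 0.00732, DESeq2) and Tubb3 (adjusted p = 0.0196, DESeq2). Without Basal d16, Dcx and Map2 passed in edgeR. The 2 cultures with AICAR at d8 were also the shallowest libraries, so that depth and AICAR cannot be told apart at d8 by the design. After thinning all libraries to the smallest total, the interaction estimates were 1.86 for Dcx, 1.88 for Tubb3 and 1.83 for Map2, again with none passing, and the AICAR effect on Dcx over both days passed (-1.74 ± 0.39, adjusted p = 0.0226, edgeR).

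**Figure D4:**
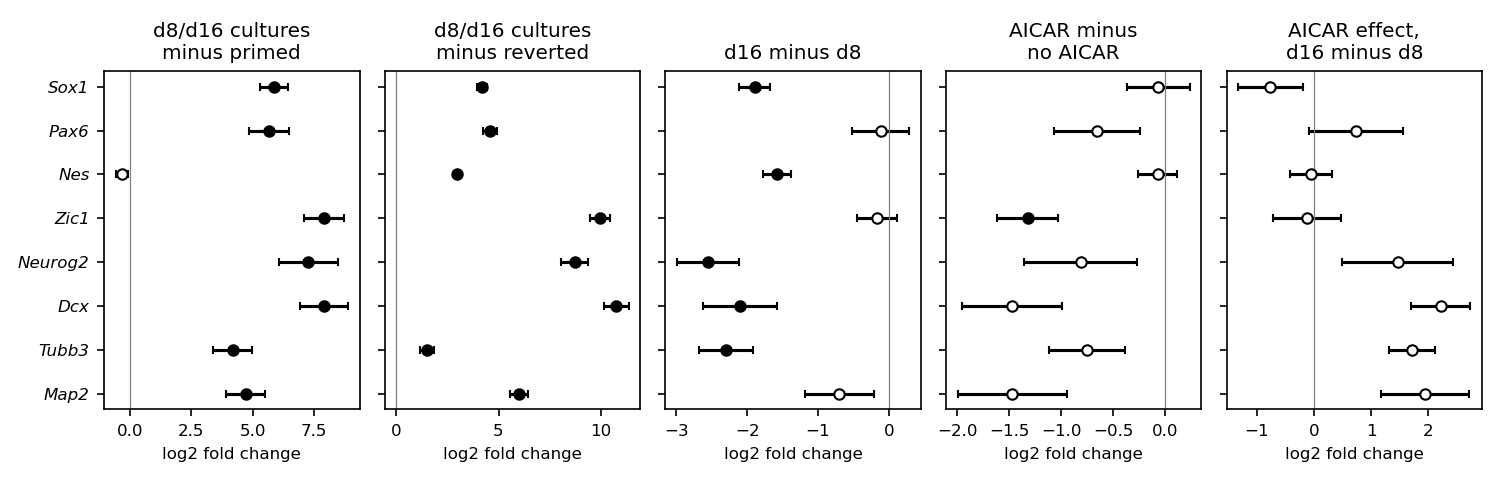
Log2 fold change of each gene (x axis, scaled separately for each comparison) with its standard error (bars) in 5 comparisons, filled where the adjusted p was under 0.05 (edgeR). Of the members, 7, 8, 5, 1 and 0 are filled from left to right, and in the last panel Dcx (2.21), Map2 (1.95) and Tubb3 (1.71) lie to the right of 0 without passing.

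Part of the other neuronal genes were also lower with AICAR in the fit over both days. Of 32 tested, 12 were lower and none higher, with a median of -1.26 against -0.02 over all genes, and Mapt was the largest at -2.36 ± 0.51, followed by Celf3 (-1.82 ± 0.49), Stmn3 (-1.66 ± 0.31) and the synaptic vesicle gene Syp (-1.47 ± 0.30). Mapt was at 162 and 125 CPM in Basal and 2iL at d8 and at 6.65 and 7.93 CPM in AICAR and AICAR+LIF. The days differed. Neuronal genes summed at d8 to 13567, 9313, 3442 and 2853 CPM in Basal, 2iL, AICAR and AICAR+LIF. At d16 the sums overlapped, at 4761, 3489, 3582 and 3980.5 CPM. The median interaction with day was 1.54, with 1 of the 32 genes passing. The d8 cultures with AICAR were also the shallowest libraries. Of 28 progenitor genes, 7 were lower and none higher, among them Pou3f3 (-1.73 ± 0.25) and Sox9 (-1.18 ± 0.19), and of the 16 proneural genes none passed, 4 having an unadjusted p under 0.05. Gfap was lower by 1.92 ± 0.50 on the log2 scale (adjusted p = 0.0474, edgeR), although at d8 it was at most 2.91 CPM in any medium.

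Genes of other lineages were counted in the same fit, where 3.54% of all genes were called higher and 6.06% lower. Of 5 surface ectoderm and epithelial genes tested (of 11 listed), 2 were higher. So were 1 of 5 muscle genes (of 13) and 2 of 3 pluripotency genes (of 8), and none was lower. A gene could pass the filter on low counts through the cultures in which it was high. The direction of these calls is therefore not independent of the filter. The summed level of the 11 surface ectoderm and epithelial genes listed, at d8, was 71.9 and 35.8 CPM in Basal and 2iL and 795 and 1374 CPM in AICAR and AICAR+LIF, and at d16 the highest was 2iL at 399 CPM. The 13 muscle genes summed at d8 to 29.0 and 25.8 against 92.1 and 284 CPM. The defining keratin gene Krt5 reached 125 CPM, whereas the defining muscle gene Myod1 was at 0 in all 4 d8 cultures. The pluripotency genes summed to 7.26 and 5.82 CPM without AICAR and 54.1 and 174 CPM with it at d8. What part these cells had in the neural levels was not tested.

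Within the cultures without AICAR, 2iL was compared with Basal medium, and within those with AICAR, AICAR+LIF with AICAR, each over both days. No member passed in either comparison, where 0.0143% and 0% of all genes were called by edgeR. In the first, 877 genes and 2 members (Sox1 and Neurog2) had an unadjusted p under 0.05. In the second, 275 of the 14026 genes but none of the members had an unadjusted p under 0.05, and DESeq2 called no member in either. The largest estimates for 2iL were those of Neurog2 (-1.502 ± 0.55, adjusted p = 0.734, edgeR) and Map2 (-1.21 ± 0.64, adjusted p = 0.853, edgeR), and 7 of the 8 were below 0, Nes being at 0.32 ± 0.27. For AICAR+LIF they lay between -0.53 (Neurog2) and 0.61 (Pax6), with standard errors of 0.27 to 0.67, so changes of that size could not be resolved with 2 libraries a medium.

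The genes most like each member over the 22 libraries were found by Pearson's r of log2 CPM among 16239 genes with at least 10 counts in 4 libraries. They are a description, since all points share the contrast between cultures and other cells. Zic1 was closest to Fabp7 (r = 0.988), Neurog2 to Vxn (r = 0.987), Dcx to Tmem121b (r = 0.985) and Map2 to Spag9 (r = 0.978). Sox1 was closest to Scrt1 (r = 0.95), with Neurog2 as the second (r = 0.941), Pax6 to Rtn1 (r = 0.948) and Nes to Cldn12 (r = 0.952). Tubb3 had the weakest match, with the neuronal filament gene Ina (r = 0.895).

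Transcript counts do not resolve isoforms of these genes. In Basal d8, the reads of Nes were split into 536 and 503 counts on its 2 coding transcripts, and 6 of the coding transcripts of Map2 had 426 to 491 counts each. Dcx was less even, with 2547 counts on Dcx-201 and 467 on Dcx-203. Whether the even splits reflect expression or the way reads shared by transcripts were placed was not tested.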

How the data were processed

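Bulk RNA-seq of 22 libraries was analysed from the gene counts as deposited. The authors made stranded mRNA libraries, mapped single reads with Bowtie2 (version 2.2.5, per the submitters' processing notes) to Ensembl GRCm38 transcript sequences and deposited whole counts per gene and per transcript, without normalization. Mapping to transcripts and a minimum mapping quality can lose reads shared by paralogs or isoforms.

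The 8 genes and all gene lists were chosen with earlier results of these data known, so none of their patterns is independent of them. Counts were tested over all genes in edgeR 4.0.16 (R 4.3.3) by its quasi-likelihood test (TMM factors, filterByExpr, Benjamini-Hochberg adjustment at 0.05). States were compared in a fit of 22 libraries in 6 states, where the lone naive library entered no contrast. Days and media were compared in fits of the 8 cultures, with medium or day as a term, so d8 and d16 of 1 medium form a pair. The standard error is the fold change divided by the square root of F. Alternatives used DESeq2 1.42.0, limma voom (limma 3.58.1), other filters, no factors, thinned counts, other terms and libraries left out. The tests were tried on simulated data. The genes named were the 8 members, in each neural list up to 4 genes a direction that passed the test, had a mean log2 CPM of 1 or more and changed most, and the 3 genes most like each member. Col1a1, Myod1 and Krt5 are defining markers. The deposited numbers of detected genes per library were not used. Summaries and figures used Python 3.11.15 with pandas 2.3.3, scipy 1.17.1 and matplotlib 3.10.9.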

Additional observations from a re-analysis of the deposited data

Results flagged for a closer look

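Within the states of 4 to 7 libraries, 5 of 32 groups of values of the 8 members held 1 library far from the others by Dixon's test. Its nominal rate of about 1 in 20 assumes normal repeat values. These groups mix media, passages or lines, so no excess can be read from the flags. At d16, Zic1 stood at 683 CPM in Basal medium against 158 to 236 CPM in the other 3 media. At d16+10p, Tubb3 stood at 232 CPM in metformin+LIF, the only library from metformin, against 30.1 to 115 CPM in the other 6. Nes at d16+2–3p was highest in AICAR d16+3p, at 34.2 CPM against at most 22.6. The other cases were single counts, namely Neurog2 at 0.353 CPM in AICAR+LIF d16+3p and Dcx at 0.299 CPM in metformin+LIF d16+10p, with 0 in the other libraries of their state. Any single count among zeros is flagged by the way the test is built.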

How the results depend on the processing

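Counts of members called (adjusted p under 0.05) are given for each comparison. For cultures against primed cells, 7 became 1 when at least 10 counts were required in every library, and against reverted cells 8 became 2, because that filter leaves only 2 members to test. Members called stayed within 1.5 times of these in every other setting of both comparisons. For d16+10p against primed cells, 2 became 4 with DESeq2 (adding Dcx and Zic1), 1 with limma voom, 1 after thinning, 1 without the 129/MSM libraries, and ranged from 1 to 2 with single libraries left out. For d16+10p against d16+2–3p, 1 became 0 with limma voom and 0 under the strict filter, and ranged from 0 to 1 with libraries left out.

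For AICAR against no AICAR, 1 became 3 with DESeq2, 6 without a filter, 2 after thinning, 0 without the day term, 0 against 2iL only and 4 against Basal only, and ranged from 0 to 4 with libraries left out, 4 being reached without 2iL d16. For AICAR, Sox1 and Nes, both uncalled and near 0, took either sign, and the uncalled Neurog2 turned positive in 1 alternative (0.11). For d16 against d8, 5 ranged from 3 to 5 with libraries left out. For 2iL against Basal medium, 0 became 1 without a filter (Neurog2). For the interaction, 0 became 2 with DESeq2, 4 without a filter, and ranged from 0 to 2 with libraries left out. For AICAR+LIF against AICAR, 0 stayed 0 in all 11 alternatives. The causes were not tested. No called member changed sign in any alternative.

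Over all genes tested, the called counts ranged from 3477 to 7536 (main 7032) for cultures against primed cells, 5907 to 15570 (14276) against reverted cells, 2880 to 6996 (6863) for d16+10p against primed cells and 592 to 2220 (1753) against d16+2–3p. In the cultures they ranged from 37 to 3143 (1347) for AICAR, 1148 to 4753 (3398) for d16, 0 to 386 (2) for 2iL, 0 to 320 (0) for AICAR+LIF and 0 to 1146 (28) for the interaction. No paired analysis by replicate number was possible because the labels number no replicates. The depth of AICAR+LIF d8 limits its levels most, 3 counts being 5.95 CPM.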
